A study of Mus musculus with 22 samples.

Results

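Primordial germ cells (PGCs, which later form eggs or sperm) taken from mouse ovaries at E12.5 (E for embryonic day) were compared between embryos with a knockout of the DNA-oxidising enzyme TET1 (Tet1-KO) and wild type embryos (Tet1-WT). The comparison used 4 of the 22 samples of the series, 2 of E12.5 female Tet1-KO and 2 of E12.5 female Tet1-WT, chosen by their labels of stage, sex and genotype. Both groups came from the same intercross of Tet1-het parents that carried the reporter GOF18∆PE-EGFP, in which regulatory sequence of Pou5f1 drives a green fluorescent protein in germ cells. The controls therefore share the reporter background with the knockouts. Tet1-WT and Tet1-KO pools of E12.5 males and of E14.5 females are set beside them in later paragraphs. The cells were sorted PGCs, for which the labels name no treatment, and each library was pooled RNA of 2 to 6 embryos of 1 genotype and sex (1000 to 8000 cells), amplified by 15 cycles of PCR as cDNA and 15 as library. The labels give no further strain, say nothing of which part of Tet1 the allele removes, and do not tie pools to litters. The p-values below rest on a spread shared over all 20 libraries of the Tet1 cross, not on these 4 pools alone. Those libraries were Tet1-WT and Tet1-KO pools at E10.5, and of each sex at E12.5 and E14.5. The spread between pools may be technical in part.

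TET1 oxidises methylated cytosine in DNA to hydroxymethylcytosine, a step on the way to removing the methyl group. PGCs lose most DNA methylation while they migrate to and settle in the gonad, and this erasure includes imprints, the parental marks that silence 1 allele of some genes, and the promoters of a set of germline genes that methylation keeps silent elsewhere. In the ovary the PGCs then leave the pluripotency programme and enter meiosis, the division that makes haploid cells, in response to signals from the surrounding somatic cells.

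Total counts were 16315488 and 18554602 in Tet1-WT replicates 1 and 2, and 24878905 and 14964368 in the Tet1-KO libraries numbered 1 and 2. Both Tet1-KO columns carry the same name in the deposited table, so the numbers 1 and 2 of that group only name columns. Levels are in CPM, read counts scaled to the same library total after TMM normalisation. Across genes, log2(CPM + 1) correlated at 0.991 between the Tet1-KO libraries and at 0.971 between the Tet1-WT libraries, while Tet1-WT replicate 1 correlated at 0.971 and 0.967 and Tet1-WT replicate 2 at 0.953 and 0.952 with the Tet1-KO libraries. Tet1-WT replicate 2 stood apart from the other 3 libraries: the 13 mitochondrial genes of oxidative phosphorylation summed to 17980 CPM there against 42410, 41670 and 32700 CPM, and the 79 cytosolic ribosomal protein genes to 57010 CPM against 81930, 89890 and 82480 CPM. The 7 Y-linked genes of the sex check summed to at most 0.236 CPM in any of the 4 libraries, against 324.8 CPM or more in the E12.5 male libraries. The 12 genes of germ cell identity, among them Ddx4, Dazl, Dppa3, Pou5f1 and Kit, were all expressed. They summed to 7123 and 7837 CPM in Tet1-WT against 6978 and 6976 CPM in Tet1-KO. These sums hide moves in opposite directions. Both Tet1-KO pools lay above both Tet1-WT pools in 4 of the 12 and below them in 4 (22.8% and 24.5% of all genes tested). Of the 12, 1 passed the threshold used below, Pou5f1, which was higher in Tet1-KO.

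Tet1 itself was measured first. It stood at 179 and 226 CPM in Tet1-WT against 53.1 and 68.9 CPM in Tet1-KO, so the groups did not overlap, and the fitted change was a fall of 1.73 on the log2 scale (SE 0.37, adjusted p = 0.0303 in the edgeR quasi-likelihood fit). Both Tet1-KO pools still held Tet1 RNA, and counts over a whole gene do not show whether that RNA could make the enzyme. The call was lost on leaving out either Tet1-KO library (adjusted p = 0.257 and 0.229) or Tet1-WT replicate 2 (adjusted p = 0.202).

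Across the 17567 genes with enough counts to test, 227 passed an adjusted p of 0.05 (Benjamini-Hochberg) and are named called here (1.29% of the genes tested). They were 25 higher in Tet1-KO (0.142%) and 202 lower (1.15%). At an unadjusted p under 0.05 there were 2270, of which 933 were higher and 1337 lower. The tools DESeq2 and limma's voom, the latter run with a quality weight for each library throughout, called 188 and 151 genes higher and 597 and 648 lower. Counts for lists below are to be read beside these totals. The falls were far larger than the rises: the called falls had a median log2 change of -3.15, and the called rises one of 0.93, with the largest at 1.55. The Tet1-WT and Tet1-KO libraries of all 227 did not overlap, a condition that 22.8% of all genes tested met with Tet1-KO higher and 24.5% with Tet1-KO lower, so that separation of 2 pools from 2 was common. Without 1 library at a time, the count was 648 when Tet1-WT replicate 1 was left out and 71 when Tet1-WT replicate 2 was. It was 45 when Tet1-KO replicate 1 was left out and 36 when Tet1-KO replicate 2 was. Of the 202 falls, 26 were called in all 4 of these fits and 113 in only 1, while 0 of the 25 rises were called in more than 2. In each such fit the remaining library of a group was assumed to vary like the other groups. In 41 of the falls Tet1-WT replicate 2 held at least 2 times the level of replicate 1, and in 4 it was the other way round. Over all genes tested these counts were 2615 and 3549.

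**Figure D1:**
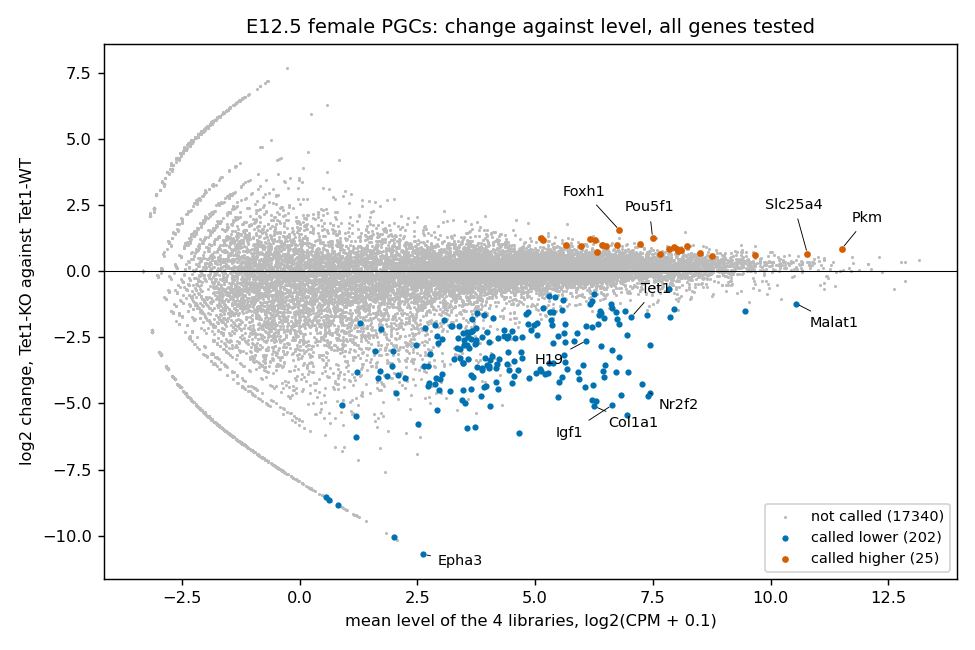
Fitted log2 change of Tet1-KO against Tet1-WT (vertical) against the mean level of the 4 libraries in log2(CPM + 0.1) (horizontal), 1 point per gene tested, with the 202 genes called lower in blue and the 25 called higher in orange. The falls reach far down at low and middle levels, while the rises stay within 1.55 of the zero line; the curved edges at the left are genes with 0 counts in a whole group, whose fitted change depends on the prior count.

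The 26 falls that kept their call in all 4 left-out fits were Nr2f2, Ecm1, Nrep, Col1a1, Mfap4, Ptn, Smarca1, Cxcl12, Meis1, Mfap2, Anxa2, Hmga2, Nfib, Itm2a, H19, Col3a1, Cdh11, Cavin1, Nfia, Ncam1, Cdkn1c, Ccnd2, Unc5c, Olfml3, Foxp1 and Cd81. This group was put together after its values were seen. It holds secreted matrix proteins (Col1a1, Col3a1, Ecm1, Mfap2, Mfap4), adhesion proteins (Cdh11, Ncam1), signals (Ptn, Cxcl12), transcription factors (Nr2f2, Meis1, Nfia, Nfib, Foxp1), a D-type cyclin of the cell cycle (Ccnd2) and imprinted genes (H19, Cdkn1c, Cd81).

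Nr2f2, a nuclear receptor that marks gonadal and mesonephric mesenchyme, had the smallest adjusted p. Its levels were 226 and 437 CPM in Tet1-WT against 13.7 and 13.5 CPM in Tet1-KO. Both Tet1-KO pools sat far below either Tet1-WT pool, and Tet1-WT replicate 2 was the highest (log2 change -4.61, SE 0.45, adjusted p = 0.000248). Ptn, a growth factor secreted by stroma, was at 139 and 164 CPM in Tet1-WT against 4.88 and 5.29 CPM in Tet1-KO (log2 change -4.89, SE 0.50, adjusted p = 0.000307). Nrep, a small protein of mesenchymal and neural cells, was at 211 and 258 CPM in Tet1-WT against 16.2 and 16.8 CPM in Tet1-KO (log2 change -3.83, SE 0.40, adjusted p = 0.000307). Cxcl12, the chemokine that draws migrating PGCs to the gonad through their receptor CXCR4, was at 68.4 and 59.8 CPM in Tet1-WT against 5.13 and 4.79 CPM in Tet1-KO (log2 change -3.69, SE 0.42, adjusted p = 0.000455). In each of these the Tet1-KO pools lay close together and far from the Tet1-WT pools. Cxcr4, the receptor itself, stood at 10.6 and 10.6 CPM in Tet1-WT against 11.5 and 10.502 CPM in Tet1-KO and was not called (adjusted p = 0.999).

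The following genes for growth factors and receptors were grouped after their values were seen. Igf1, an insulin-like growth factor, was at 124 and 261 CPM in Tet1-WT against 3.1 and 8.67 CPM in Tet1-KO (log2 change -5.06, SE 0.71, adjusted p = 0.00192), a call lost only on leaving out Tet1-KO replicate 1 (adjusted p = 0.0558). Kitl, the ligand that keeps PGCs alive through the receptor KIT, was at 14.9 and 26.5 CPM in Tet1-WT against 5.46 and 3.03 CPM in Tet1-KO (log2 change -2.27, SE 0.43, adjusted p = 0.0147), with the groups apart and the call lost on leaving out either Tet1-KO library (adjusted p = 0.0599 and 0.291) or Tet1-WT replicate 2 (adjusted p = 0.165). Kit, its receptor on germ cells, stood at 512 and 650.0 CPM in Tet1-WT against 622 and 856 CPM in Tet1-KO and was not called (adjusted p = 0.807). Whether the changes of Kitl and Kit differed was not tested. Pdgfrb, a receptor for platelet-derived growth factor on mesenchyme, was at 38.3 and 43 CPM in Tet1-WT against 3.44 and 2.54 CPM in Tet1-KO (log2 change -3.75, SE 0.55, adjusted p = 0.00243). Pdgfra, the other such receptor, was at 50.6 and 120.4 CPM in Tet1-WT against 3.52 and 5.99 CPM in Tet1-KO (log2 change -4.19, SE 0.76, adjusted p = 0.0105). Unc5c, a receptor for the guidance cue netrin, was at 19 and 26.5 CPM in Tet1-WT against 0.166 and 0.634 CPM in Tet1-KO (log2 change -5.92, SE 0.78, adjusted p = 0.00106). Both Tet1-KO pools were low for all 3 of these receptors. The call of Pdgfrb was lost on leaving out either Tet1-KO library (adjusted p = 0.0512 and 0.0961), and that of Pdgfra on leaving out either Tet1-KO library (adjusted p = 0.181 and 0.154) or Tet1-WT replicate 2 (adjusted p = 0.0932).

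The called falls with the highest level in Tet1-WT included nuclear noncoding RNAs. Malat1, a long RNA that stays in the nucleus, was at 1800.0 and 2365 CPM in Tet1-WT against 987 and 795 CPM in Tet1-KO (log2 change -1.22, SE 0.24, adjusted p = 0.0175), a call lost on leaving out either Tet1-KO library (adjusted p = 0.0945 and 0.341) or Tet1-WT replicate 2 (adjusted p = 0.194). Tug1, another long noncoding RNA, was at 499 and 1584 CPM in Tet1-WT against 341 and 383 CPM in Tet1-KO (log2 change -1.52, SE 0.34, adjusted p = 0.0408). Its Tet1-WT replicate 2 was far above the other 3 libraries, and the call was lost on leaving out either Tet1-KO library (adjusted p = 0.257 and 0.32) or Tet1-WT replicate 2 (adjusted p = 0.475). Zfp266, a zinc finger protein, showed the same order at 206 and 512 CPM in Tet1-WT against 110.0 and 108 CPM in Tet1-KO (log2 change -1.72, SE 0.32, adjusted p = 0.012), with the call lost on leaving out either Tet1-KO library (adjusted p = 0.124 and 0.2) or Tet1-WT replicate 2 (adjusted p = 0.171). Dnm3os, the host RNA of a microRNA cluster in mesenchyme, was at 116 and 370.5 CPM in Tet1-WT against 4.93 and 6.41 CPM in Tet1-KO (log2 change -5.43, SE 1.08, adjusted p = 0.0194), again with Tet1-WT replicate 2 highest and the call lost on leaving out either Tet1-KO library (adjusted p = 0.221 and 0.29) or Tet1-WT replicate 2 (adjusted p = 0.147).

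Genes with 0 counts in both Tet1-KO libraries have only a lower bound, set with 3 counts per Tet1-KO library, which covers counting error only. Epha3, an ephrin receptor, stood at 9.96 and 14.4 CPM in Tet1-WT and was at least 72.61-fold lower in Tet1-KO (adjusted p = 0.00351). Fgf10, a growth factor of mesenchyme, stood at 7.72 and 7.89 CPM and was at least 46.51-fold lower (adjusted p = 0.0422). In all, 5 called falls had 0 counts in both Tet1-KO pools. The Epha3 call was lost on leaving out either Tet1-KO library (adjusted p = 0.0699 and 0.0674), and the Fgf10 call on leaving out either Tet1-KO library (adjusted p = 0.285 and 0.359) or Tet1-WT replicate 2 (adjusted p = 0.146).

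Lists of genes for the cell types that neighbour PGCs were counted next. Of 25 mesenchyme genes tested, 13 fell and 0 rose, against 1.15% of all genes tested that fell, and the median log2 change was -3.75 (all genes: -0.02). Summed over the list, the level stood at 967.5 and 1350 CPM in Tet1-WT against 80.8 and 87.82 CPM in Tet1-KO. Both Tet1-KO pools were low, and every one of the 25 genes kept at least 1 count in each group. With either Tet1-KO library left out, 4 members were called lower. Dcn, a small proteoglycan of connective tissue, was at 32.4 and 31.1 CPM in Tet1-WT against 0.869 and 0.987 CPM in Tet1-KO (log2 change -5.09, SE 0.82, adjusted p = 0.0048). Lum, a related proteoglycan, was at 54.4 and 45.2 CPM in Tet1-WT against 0.704 and 0.705 CPM in Tet1-KO (log2 change -6.13, SE 1.15, adjusted p = 0.013). Both stood under 1 CPM in each Tet1-KO pool. Removing either Tet1-KO library (adjusted p = 0.114 and 0.14) ended the Dcn call, and removing either Tet1-KO library (adjusted p = 0.182 and 0.255) or Tet1-WT replicate 2 (adjusted p = 0.0563) the Lum call. Ptch1, the receptor for hedgehog ligands, was the 1 member with a log2 change above 0, at 22.7 and 30.3 CPM in Tet1-WT against 24.3 and 28.9 CPM in Tet1-KO (adjusted p = 1).

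Of 16 genes of ovarian supporting cells, the pregranulosa lineage, 4 fell (Foxp1, Capn6, Kitl and Mdk) and 0 rose, with a median log2 of -1.91, or -1.79 if genes at 0 are given their bounds. Mdk, the growth factor midkine, was at 285 and 439.5 CPM in Tet1-WT against 133 and 136 CPM in Tet1-KO (log2 change -1.43, SE 0.29, adjusted p = 0.024). Its call and that of Capn6 ended with the removal of either Tet1-KO library (0.181 and 0.266 for Mdk, 0.173 and 0.232 for Capn6) or of Tet1-WT replicate 2 (0.239 for Mdk, 0.0553 for Capn6). The genes that define the lineage were low in all 4 libraries. Foxl2 had 7 counts in Tet1-WT replicate 1 and 0 in the other 3 and was not tested. Wnt4, the signal that directs ovary development, stood at 4.83 and 3.05 CPM in Tet1-WT against 1.08 and 1.34 CPM in Tet1-KO (adjusted p = 0.378). Rspo1, which amplifies that signal, stood at 1.18 and 1.68 CPM in Tet1-WT against 0.662 and 0.0705 CPM in Tet1-KO (adjusted p = 0.687). Neither was called, and the lower levels were in Tet1-KO. Of 18 genes of the coelomic epithelium and gonadal ridge 1 fell, Gata6, at 19 and 24.9 CPM in Tet1-WT against 0.621 and 0.775 CPM in Tet1-KO (log2 change -4.97, SE 0.85, adjusted p = 0.00745), a call that ended without either Tet1-KO library (adjusted p = 0.138 and 0.159). Wt1, a regulator of that epithelium, was at 16.5 and 41.5 CPM in Tet1-WT against 1.7 and 1.41 CPM in Tet1-KO and missed the threshold (adjusted p = 0.0603).

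No gene of other lineages was called by edgeR, though some lists had medians below 0. Genes of endothelium (18 tested), white blood cells (15), erythroid cells (14), testis supporting cells (11), steroidogenic cells (10), mesonephric tubule and other epithelia (12) and nerve and glia (12) held 0 calls in either direction by edgeR. At an unadjusted p under 0.05 they held 1, 0, 2, 5, 1, 2 and 2 genes in that order, DESeq2 called 1 endothelial and 1 testis gene, and limma's voom called between 0 and 2 per list. The endothelial sum was 56.56 and 49.42 CPM in Tet1-WT against 47.64 and 48.7 CPM in Tet1-KO, and the white blood cell sum 32.93 and 43.8 against 28.64 and 17.97 CPM. The erythroid sum was 204.8 and 119.6 against 109.7 and 53.36 CPM. In these bulk samples fewer cells of a type and less RNA per cell cannot be told apart.

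**Figure D2:**
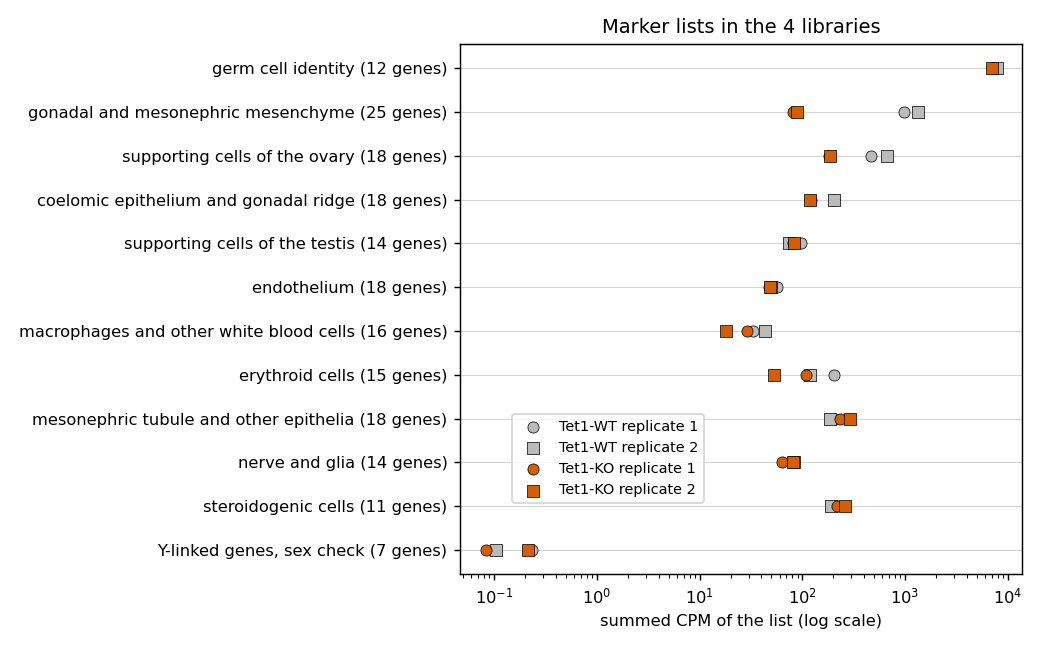
Summed level of each list of cell type markers in CPM on a log axis (horizontal), with 1 symbol per library (grey Tet1-WT, orange Tet1-KO, circles replicate 1 and squares replicate 2). The mesenchyme list holds 967.5 and 1350 CPM in Tet1-WT against 80.8 and 87.82 CPM in Tet1-KO, while the germ cell list lies between 6976 and 7837 CPM in all 4 libraries.

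Collagens, Hox genes and cell adhesion genes were counted as families. Of 39 collagen genes tested 4 fell (Col1a1, Col1a2, Col3a1 and Col4a1) and 0 rose, 35 lay below 0, and the median log2 was -2.79. Col1a1 and Col3a1 are members of the mesenchyme list as well, so these falls partly repeat those of that list. Col1a1, the main chain of fibrillar collagen I, stood at 110.2 and 186 CPM in Tet1-WT against 3.6 and 5.07 CPM in Tet1-KO, and its Tet1-KO pools lay far below both Tet1-WT pools (log2 change -5.11, SE 0.54, adjusted p = 0.000307). Col3a1, of collagen III, was at 116 and 115 CPM in Tet1-WT against 8.07 and 5.71 CPM in Tet1-KO (log2 change -4.06, SE 0.51, adjusted p = 0.000759). Col18a1, a basement membrane collagen, stood at 44.8 and 35.2 CPM in Tet1-WT against 60.2 and 41.1 CPM in Tet1-KO (adjusted p = 0.617). Of 34 Hox genes, the transcription factors that give body position, 2 fell, Hoxd10 (5.71 and 9.83 CPM against 0.455 and 0.141 CPM, adjusted p = 0.0258) and Hoxc10 (8.95 and 13.6 CPM against 0.331 and 1.62 CPM, adjusted p = 0.0475). The other Hox genes were low, 33 of the 34 lay below 0, and the median log2 was -3.70, or -2.82 with the 7 genes at 0 in a group set to their bounds. Of 30 integrin and laminin genes 1 fell, Itga8, an integrin of mesenchyme, at 29.9 and 40.3 CPM in Tet1-WT against 1.86 and 1.27 CPM in Tet1-KO (adjusted p = 0.0335). The calls of Hoxd10, Hoxc10, Itga8, Col1a2 and Col4a1 each ended with the removal of either Tet1-KO library or of Tet1-WT replicate 2. The lowest adjusted p in those fits was 0.0536 (Col1a2, without Tet1-WT replicate 2) and the highest 0.444 (Col4a1, without Tet1-KO replicate 2). Of all 202 called falls 18 (8.91%) were members of a marker list and of no list of germ cell programmes, as were 152 of all genes tested (0.865%). The marker lists here include those of Y-linked genes and of germ cell identity, which held 0 of the called falls.

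Imprinted genes, which are expressed from 1 parental allele where the imprint is kept, held falls in both the paternal and the maternal list. The lists go by the allele that the imprint leaves active. The counts do not tell alleles apart, so expression from 1 allele in these PGCs was not tested. Of 27 genes expressed from the paternal allele 6 fell and 0 rose (median log2 -0.76), and of 32 expressed from the maternal allele 6 fell and 0 rose (median log2 -0.39), against 1.15% lower and 0.142% higher over all genes. With Tet1-WT replicate 1 left out the medians were -0.44 and -0.24, and with Tet1-WT replicate 2 left out the maternal one was -0.66. The paternal count was 0 with Tet1-KO replicate 2 left out and 1 with Tet1-KO replicate 1 left out, and the maternal count was 3 with Tet1-KO replicate 1 or Tet1-WT replicate 2 left out.

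On the paternal side Igf2, the fetal insulin-like growth factor, was at 106 and 66.5 CPM in Tet1-WT against 13.1 and 13.7 CPM in Tet1-KO (log2 change -2.68, SE 0.43, adjusted p = 0.00474). Mest, an enzyme of mesoderm, was at 103 and 92.4 CPM in Tet1-WT against 14.9 and 16.6 CPM in Tet1-KO (log2 change -2.63, SE 0.43, adjusted p = 0.00494). Dlk1, a Notch-related membrane protein that is also in the mesenchyme list, was at 14.3 and 10.515 CPM in Tet1-WT against 0.579 and 0.634 CPM in Tet1-KO (log2 change -4.34, SE 0.66, adjusted p = 0.00304). For Igf2, Mest and Dlk1 the Tet1-KO pools lay close together and under both Tet1-WT pools, and their calls were lost without Tet1-KO replicate 1 (0.0951, 0.0976 and 0.0884) or Tet1-KO replicate 2 (0.119, 0.108 and 0.0956). Sgce, a sarcoglycan, was at 10.4 and 17.6 CPM in Tet1-WT against 1.08 and 0.564 CPM in Tet1-KO (log2 change -4.04, SE 0.72, adjusted p = 0.00921). Peg10, its neighbour under the same imprinting control region, was at 8.6 and 3.31 CPM in Tet1-WT against 0.704 and 0.0705 CPM in Tet1-KO (log2 change -3.77, SE 0.69, adjusted p = 0.0127). The Peg10 call ended without Tet1-KO replicate 2 (adjusted p = 0.169), and the Sgce call without either Tet1-KO library (adjusted p = 0.0984 and 0.231) or Tet1-WT replicate 2 (adjusted p = 0.0777). Impact, a regulator of translation, was at 101 and 187 CPM in Tet1-WT against 53.1 and 55.5 CPM in Tet1-KO (log2 change -1.41, SE 0.29, adjusted p = 0.0244), a call that ended without either Tet1-KO library (adjusted p = 0.182 and 0.258) or Tet1-WT replicate 2 (adjusted p = 0.296). Other paternal genes were not called. Peg3, a zinc finger protein, stood at 729 and 639 CPM in Tet1-WT against 476 and 490.4 CPM in Tet1-KO (log2 change -0.50, SE 0.23, adjusted p = 0.38), with both Tet1-KO pools lower. Slc38a4, an amino acid transporter, stood at 258 and 243 CPM in Tet1-WT against 237 and 261 CPM in Tet1-KO (adjusted p = 1).

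On the maternal side H19, a noncoding RNA that shares its control region with Igf2, was at 125 and 109 CPM in Tet1-WT against 19.7 and 18 CPM in Tet1-KO (log2 change -2.63, SE 0.32, adjusted p = 0.000671). Cdkn1c, which blocks cyclin-dependent kinases, was at 129 and 226 CPM in Tet1-WT against 23.6 and 21.2 CPM in Tet1-KO (log2 change -2.98, SE 0.38, adjusted p = 0.000826). H19, Cdkn1c and Cd81 kept their calls without any 1 of the 4 libraries. Cd81, a tetraspanin of the cell surface, was at 144 and 209 CPM in Tet1-WT against 61.5 and 64.1 CPM in Tet1-KO (log2 change -1.49, SE 0.21, adjusted p = 0.00215). Grb10, an adaptor that restrains growth signals, was at 87.7 and 308 CPM in Tet1-WT against 14.4 and 27.8 CPM in Tet1-KO (log2 change -3.24, SE 0.52, adjusted p = 0.00494), with Tet1-WT replicate 2 far above replicate 1. The call of Grb10 was lost on leaving out Tet1-KO replicate 1 (adjusted p = 0.114) or Tet1-WT replicate 2 (adjusted p = 0.0693). Asb4, which takes part in tagging proteins with ubiquitin, was at 57.1 and 74.5 CPM in Tet1-WT against 15.4 and 16.9 CPM in Tet1-KO (log2 change -2.03, SE 0.35, adjusted p = 0.00798), and its call ended without either Tet1-KO library (adjusted p = 0.124 and 0.142) or Tet1-WT replicate 2 (adjusted p = 0.0794). Meg3, a noncoding RNA of the Dlk1 region, was at 19.97 and 18.5 CPM in Tet1-WT against 2.94 and 5 CPM in Tet1-KO (log2 change -2.29, SE 0.51, adjusted p = 0.0377), and its call ended without either Tet1-KO library (adjusted p = 0.32 and 0.209) or Tet1-WT replicate 2 (adjusted p = 0.14). H19 and Igf2, listed under opposite alleles of 1 region, were thus both lower in Tet1-KO, and so were Meg3 and Dlk1. Phlda2, next to Cdkn1c, stood at 249.8 and 431 CPM in Tet1-WT against 398 and 438 CPM in Tet1-KO (adjusted p = 0.895). Igf2r, a receptor that clears IGF2, stood at 121 and 156 CPM in Tet1-WT against 116 and 105 CPM in Tet1-KO (adjusted p = 0.459). The mesenchyme sum given above was lower in the same Tet1-KO pools. With that sum as a covariate 0 genes of any kind were called, imprinted or not. That fit thus cannot tell the part of the mesenchyme level from that of the genotype for the imprinted genes.

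**Figure D3:**
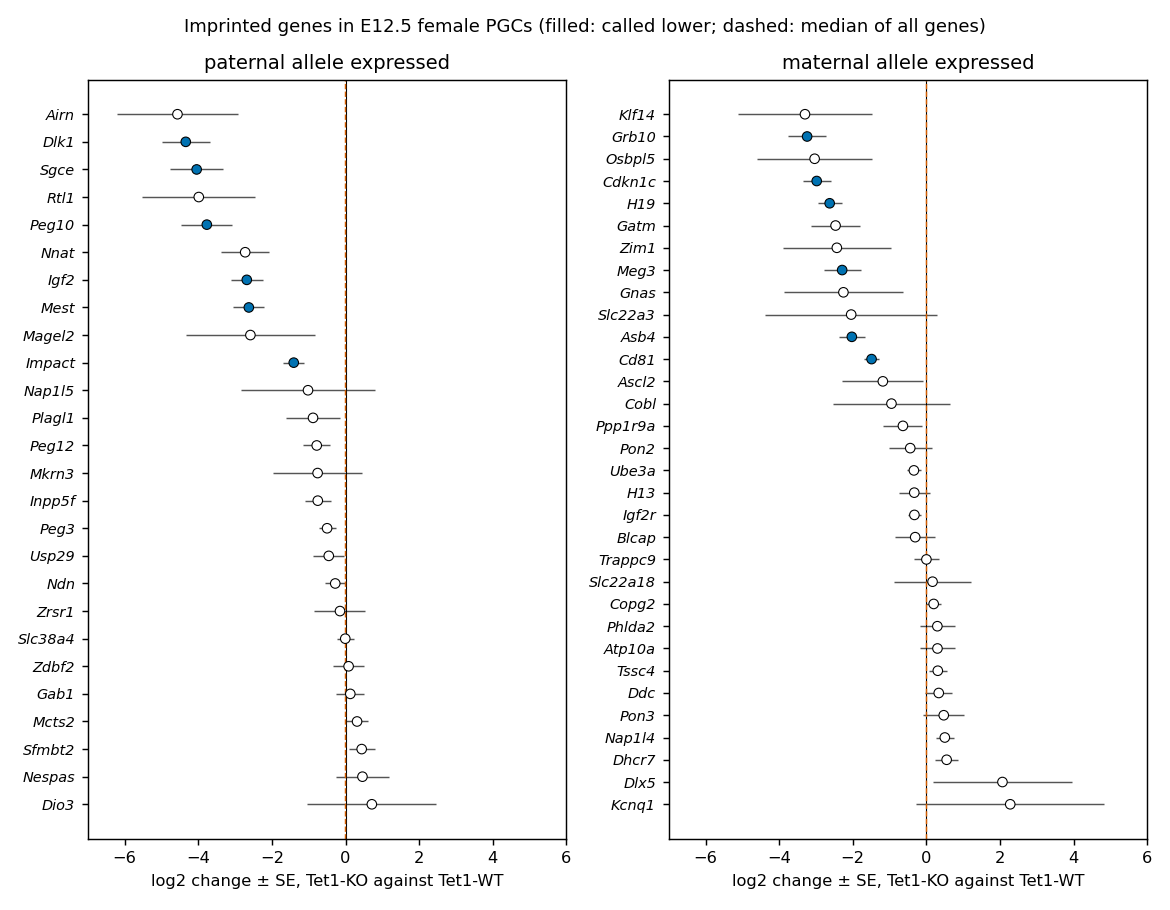
Fitted log2 change of Tet1-KO against Tet1-WT with its standard error (horizontal) for the imprinted genes tested that had counts, expressed from the paternal allele (left) or the maternal allele (right), 1 gene per row. Filled points are the 6 called falls on each side, which reach -4.34 at Dlk1 and -3.24 at Grb10; the dashed line is the median of all genes at -0.02.

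The called rises were smaller, and several of the 19 named ones serve energy metabolism or protein synthesis, a grouping made after the values were seen. Slc25a4, the ADP/ATP carrier of the inner mitochondrial membrane, was at 1359 and 1374 CPM in Tet1-WT against 2105 and 2202 CPM in Tet1-KO. Each group was tight and the groups lay apart (log2 change 0.66, SE 0.12, adjusted p = 0.0119). Pkm, which makes pyruvate in the last step of glycolysis, was at 2034 and 2139 CPM in Tet1-WT against 3049 and 4479 CPM in Tet1-KO (log2 change 0.85, SE 0.19, adjusted p = 0.0435), and Gpi1, an earlier enzyme of the same pathway, at 227 and 185 CPM in Tet1-WT against 323 and 466 CPM in Tet1-KO (log2 change 0.94, SE 0.19, adjusted p = 0.0209). Pdha1, of the complex that feeds pyruvate into the citric acid cycle, was at 200.1 and 190.0 CPM in Tet1-WT against 297 and 366 CPM in Tet1-KO (log2 change 0.76, SE 0.15, adjusted p = 0.0194). Got2, a mitochondrial aminotransferase, was at 42.7 and 52.1 CPM in Tet1-WT against 80.4 and 132 CPM in Tet1-KO (log2 change 1.17, SE 0.27, adjusted p = 0.0483). Got2 was called higher too but is not among the 19, and was named for its difference between the sexes. For Pkm, Gpi1, Pdha1 and Got2 Tet1-KO replicate 2 was the higher of the Tet1-KO pools.

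Of the genes for protein and ribosome synthesis, Bysl, a ribosome assembly factor with the smallest adjusted p among the rises, was at 61.3 and 53.3 CPM in Tet1-WT against 96.6 and 131 CPM in Tet1-KO (log2 change 0.99, SE 0.17, adjusted p = 0.00802). Eif3l, a subunit of an initiation factor of translation, was at 673 and 623 CPM in Tet1-WT against 916 and 1050.1 CPM in Tet1-KO (log2 change 0.60, SE 0.13, adjusted p = 0.0303), and Sars, which charges serine onto its tRNA, at 209.8 and 158 CPM in Tet1-WT against 309.9 and 353 CPM in Tet1-KO (log2 change 0.85, SE 0.19, adjusted p = 0.0403). Both Tet1-KO pools exceeded both Tet1-WT pools in each of these. Foxh1, the transcription factor through which NODAL and activin signals act, had the largest rise at 66.6 and 46 CPM in Tet1-WT against 145 and 185 CPM in Tet1-KO (log2 change 1.55, SE 0.34, adjusted p = 0.0351). Irf1, an interferon-responsive factor, was at 87.6 and 56 CPM in Tet1-WT against 129 and 155 CPM in Tet1-KO (log2 change 0.98, SE 0.21, adjusted p = 0.0303), and Rcc1, which loads the GTPase RAN on chromatin, at 38.2 and 48.5 CPM in Tet1-WT against 75.8 and 126 CPM in Tet1-KO (log2 change 1.22, SE 0.26, adjusted p = 0.0303). No rise kept its call without Tet1-WT replicate 2 or without Tet1-KO replicate 2, fits in which 0 genes were called higher, while 21 of the 25 kept it with Tet1-WT replicate 1 left out and 6 with Tet1-KO replicate 1 left out. Without those libraries the adjusted p of Bysl was 0.132 and 0.232, and that of Slc25a4 0.0574 and 0.149.

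**Figure D4:**
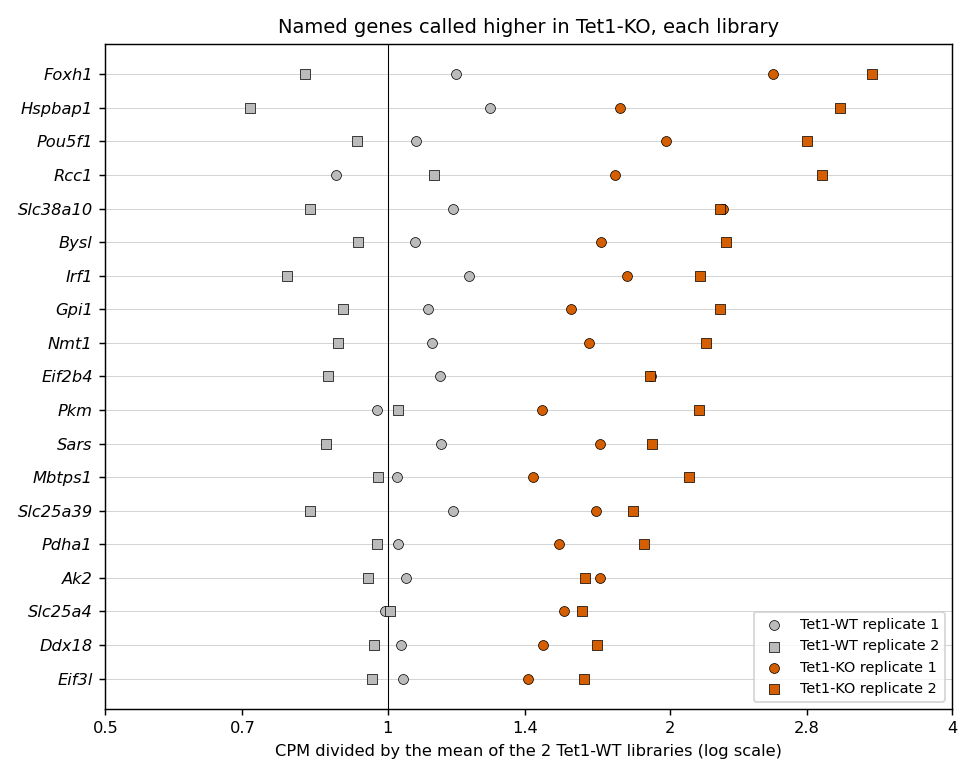
Level of the 19 named genes called higher in Tet1-KO, in each library, as CPM divided by the mean of the 2 Tet1-WT libraries on a log axis (horizontal), 1 gene per row in the order of the fitted change. All orange Tet1-KO symbols lie to the right of both grey Tet1-WT symbols of their row, from Eif3l (log2 0.60) at the bottom to Foxh1 (log2 1.55) at the top. Got2, named by another part of the rule, is not shown.

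Nodal, Lefty2 and Tdgf1, 3 genes of NODAL signalling chosen after their values were seen, were not called. Nodal, the ligand, stood at 2.47 and 1.42 CPM in Tet1-WT against 8.9 and 6.63 CPM in Tet1-KO (adjusted p = 0.484), its inhibitor and target Lefty2 at 4.36 and 1.42 CPM in Tet1-WT against 17.7 and 9.66 CPM in Tet1-KO (adjusted p = 0.205), and its co-receptor Tdgf1 at 11.4 and 6.57 CPM in Tet1-WT against 23.9 and 24.3 CPM in Tet1-KO (adjusted p = 0.293). In all 3 both Tet1-KO pools lay above both Tet1-WT pools, as 22.8% of all genes did.

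Pluripotency genes, which germ cells share with the early embryo, held 1 rise and 1 fall among 30 tested. Pou5f1, the transcription factor OCT4, was at 114 and 98.6 CPM in Tet1-WT against 211 and 298 CPM in Tet1-KO (log2 change 1.26, SE 0.29, adjusted p = 0.0429). The pools did not overlap, and Tet1-KO replicate 2 was the highest. The call was lost without any 1 library (the adjusted p was 0.0674 and 0.355 with Tet1-WT replicate 1 or 2 left out, and 0.111 and 0.5 with Tet1-KO replicate 1 or 2 left out). The reporter used in this cross holds Pou5f1 regulatory sequence, and whether transcripts of it added to the Pou5f1 count was not tested. Tbx3, a factor that mesenchyme also expresses, fell at 11.4 and 18.9 CPM in Tet1-WT against 1.57 and 0.352 CPM in Tet1-KO (log2 change -3.88, SE 0.86, adjusted p = 0.0416), a call that ended without either Tet1-KO library (adjusted p = 0.124 and 0.461) or Tet1-WT replicate 2 (adjusted p = 0.223). Nanog, a core factor of pluripotency, stood at 144 and 106 CPM in Tet1-WT against 214 and 199.5 CPM in Tet1-KO (adjusted p = 0.439), and Sox2, its partner, at 43.5 and 64.2 CPM in Tet1-WT against 73.2 and 67.3 CPM in Tet1-KO (adjusted p = 0.651). Over the list 25 of 30 genes lay above 0 and 24 had Tet1-KO pools above both Tet1-WT pools (22.8% of all genes), with a median log2 of 0.65. DESeq2 called 3 rises and 1 fall in it, and limma's voom 5 and 1. Over all genes tested DESeq2 called 188 rises and 597 falls, and limma's voom 151 and 648.

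Early PGC genes, those that found and keep the lineage, held 0 calls among 19 tested by edgeR. At an unadjusted p under 0.05 they held 4 genes, against 2270 of all 17567 genes tested. DESeq2 and limma's voom each called 3, all higher, against 188 and 151 higher over all genes. Their median log2 was 0.39. Prdm1, a repressor that specifies PGCs, stood at 85.5 and 79.97 CPM in Tet1-WT against 101 and 117 CPM in Tet1-KO (adjusted p = 0.713). Tfap2c, which acts with it, stood at 68.7 and 47.3 CPM in Tet1-WT against 92.1 and 83 CPM in Tet1-KO (adjusted p = 0.572). Dnd1, an RNA-binding protein that germ cells need to survive, stood at 161 and 141 CPM in Tet1-WT against 246 and 341 CPM in Tet1-KO (adjusted p = 0.169). In these 3 both Tet1-KO pools lay above both Tet1-WT pools. Etv5, a transcription factor, did so too at 271 and 245 CPM in Tet1-WT against 466 and 523 CPM in Tet1-KO (adjusted p = 0.064). Dppa3, which shields DNA methylation in the early embryo, stood at 2363 and 3543 CPM in Tet1-WT against 3047 and 2957 CPM in Tet1-KO (log2 change 0.02, SE 0.25, adjusted p = 1), with Tet1-KO inside the range of Tet1-WT.

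Methylation-sensitive germline genes are those whose promoters methylation keeps silent in other cells. The promoters of Dazl and Sycp3, of this group, and of Pou5f1 and Nr2f2, a called rise and the fall with the smallest p, are shown to compare how many CG sites, the targets of methylation, each holds. They are the 250 bases before the RefSeq start (GRCm38.p6), on the strand of the gene and 5′ to 3′, with each CG in capitals.
Dazl (chr17:50293621-50293870, minus strand): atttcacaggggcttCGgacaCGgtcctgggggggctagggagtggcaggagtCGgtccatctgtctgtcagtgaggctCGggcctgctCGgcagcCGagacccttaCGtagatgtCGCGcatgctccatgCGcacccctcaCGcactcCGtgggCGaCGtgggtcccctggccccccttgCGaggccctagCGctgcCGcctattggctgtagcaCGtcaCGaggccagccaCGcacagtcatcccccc
Sycp3 (chr10:88459337-88459586, plus strand): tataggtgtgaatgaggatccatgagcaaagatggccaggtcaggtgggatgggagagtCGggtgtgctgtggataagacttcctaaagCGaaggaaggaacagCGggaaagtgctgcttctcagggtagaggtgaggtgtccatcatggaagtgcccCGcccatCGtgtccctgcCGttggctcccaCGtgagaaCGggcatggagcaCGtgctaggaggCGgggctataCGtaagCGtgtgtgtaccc
Pou5f1 (chr17:35505782-35506031, plus strand, the first of 2 listed starts): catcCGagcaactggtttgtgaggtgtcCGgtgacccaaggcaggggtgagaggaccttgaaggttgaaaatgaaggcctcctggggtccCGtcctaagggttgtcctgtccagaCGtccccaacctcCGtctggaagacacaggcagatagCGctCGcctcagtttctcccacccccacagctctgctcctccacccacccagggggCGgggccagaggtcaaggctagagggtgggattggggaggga
Nr2f2 (chr7:70366747-70366996, minus strand): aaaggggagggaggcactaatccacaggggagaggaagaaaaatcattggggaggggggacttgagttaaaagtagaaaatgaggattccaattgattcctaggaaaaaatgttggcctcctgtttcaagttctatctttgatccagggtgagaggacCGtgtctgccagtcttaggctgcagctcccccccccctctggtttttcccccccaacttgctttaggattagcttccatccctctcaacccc
The Dazl promoter held 20 CG sites, that of Sycp3 12, that of Pou5f1 8 and that of Nr2f2 1. Among the 32851 starts listed by RefSeq, 92.1% held at least 1 CG in the same window, with a median of 6, and 82.1% held fewer than Dazl, 66.5% fewer than Sycp3, 57% fewer than Pou5f1 and 7.87% fewer than Nr2f2. The motif reads the same on both strands. These data hold no methylation level of these promoters.

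Of the 42 methylation-sensitive germline genes tested 0 were called in either direction by edgeR. At an unadjusted p under 0.05, 3 lay higher and 9 lower, against 933 and 1337 of all 17567 genes tested. DESeq2 called 4 falls and limma's voom 6, against 597 and 648 over all genes. The median log2 was -0.47, or -0.21 with Tet1-WT replicate 1 left out, and 21 of the 42 had Tet1-KO pools under both Tet1-WT pools (24.5% of all genes). Dazl, an RNA-binding protein that readies PGCs for sexual development, stood at 2067 and 1164 CPM in Tet1-WT against 867 and 697 CPM in Tet1-KO. Tet1-WT replicate 1 was the highest and the groups did not overlap, but the pools of Tet1-WT differed widely (log2 change -1.05, SE 0.40, adjusted p = 0.265). Ddx4, a helicase of germ cells, stood at 655 and 648 CPM in Tet1-WT against 465 and 433 CPM in Tet1-KO (log2 change -0.54, SE 0.34, adjusted p = 0.572), Mael, of the piRNA pathway that silences transposons, at 88.2 and 39.4 CPM in Tet1-WT against 16.2 and 21.6 CPM in Tet1-KO (log2 change -1.76, SE 0.63, adjusted p = 0.225), and Tex101, a germ cell surface protein, at 49.2 and 26.8 CPM in Tet1-WT against 11.6 and 7.82 CPM in Tet1-KO (log2 change -1.95, SE 0.57, adjusted p = 0.124). All 3 were lower in both Tet1-KO pools. Rhox9, an X-linked homeobox gene, was higher in both at 651 and 532 CPM in Tet1-WT against 925 and 1050.4 CPM in Tet1-KO (adjusted p = 0.501). The wider piRNA list of 27 genes held 0 calls by edgeR and DESeq2 and 1 by limma's voom. At an unadjusted p under 0.05 it held 3 genes, against 2270 of all 17567 genes tested. Its median log2 was -0.14, which was -0.32 with Tet1-KO replicate 1 left out and -0.05 with Tet1-WT replicate 1 left out.

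No gene of meiotic entry passed the threshold at E12.5. Stra8, the gene that retinoic acid and BMP signals switch on to start meiosis, stood at 31.3 and 6.94 CPM in Tet1-WT against 4.02 and 0.987 CPM in Tet1-KO. Tet1-WT replicate 1 held most of it, and the Tet1-KO pools lay below both Tet1-WT pools (log2 change -2.84, SE 0.68, adjusted p = 0.0558). Gm4969, which encodes its partner MEIOSIN, stood at 2.42 and 2.05 CPM in Tet1-WT against 0.911 and 0.846 CPM in Tet1-KO (adjusted p = 0.362), and Meioc, which lets PGCs leave mitosis, at 14.493 and 3.58 CPM in Tet1-WT against 2.65 and 1.55 CPM in Tet1-KO (adjusted p = 0.271). In both, as in Stra8, Tet1-WT was the higher group. Id3, a target of BMP signals, stood at 734 and 340.1 CPM in Tet1-WT against 736 and 757 CPM in Tet1-KO (adjusted p = 0.549), with Tet1-WT replicate 2 far below the other 3 libraries. The 27 genes of meiotic entry and its signals held 0 calls by edgeR, DESeq2 and limma's voom. At an unadjusted p under 0.05 they held 4 genes, all lower, against 1337 lower of all 17567 genes tested. Their median log2 was 0.02. That median had no steady sign: it was -0.35 with Tet1-WT replicate 2 left out, -0.30 with Tet1-KO replicate 1 left out, 0.22 with Tet1-WT replicate 1 left out, 0.08 with Tet1-KO replicate 2 left out, -0.12 in a fit of the 4 libraries alone and -0.02 under upper quartile scaling.

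The 18 genes of the chromosome axis and synaptonemal complex, which hold paired chromosomes together, also held 0 calls by edgeR. At an unadjusted p under 0.05, 6 genes were lower, against 1337 of all 17567 genes tested. DESeq2 called 3 falls and limma's voom 2, against 597 and 648 over all genes. Of the 18, 15 lay below 0 and 12 had Tet1-KO pools under both Tet1-WT pools (24.5% of all genes), with a median log2 of -0.62 that was -0.94 with Tet1-WT replicate 2 left out and -0.43 with Tet1-WT replicate 1 left out. Sycp1, of the central region of the complex, stood at 107 and 58.5 CPM in Tet1-WT against 36.9 and 31.3 CPM in Tet1-KO (log2 change -1.28, SE 0.35, adjusted p = 0.0962), and Sycp3, of its axis, at 79.7 and 56.3 CPM in Tet1-WT against 39.8 and 37.6 CPM in Tet1-KO (log2 change -0.81, SE 0.23, adjusted p = 0.116). Both had Tet1-WT replicate 1 highest and Tet1-KO pools that lay close together. Smc1b, a meiotic cohesin, stood at 455 and 461 CPM in Tet1-WT against 315 and 292 CPM in Tet1-KO (adjusted p = 0.306), Stag3, its partner, at 212 and 238 CPM in Tet1-WT against 185 and 295 CPM in Tet1-KO (adjusted p = 0.933), and Rec8, the cleavable meiotic cohesin subunit, at 31.5 and 27.1 CPM in Tet1-WT against 19.4 and 23.9 CPM in Tet1-KO (adjusted p = 0.933). Stag3 overlapped between the groups and Rec8 did not. Of 26 recombination genes 0 were called by edgeR or DESeq2 and 1, lower, by limma's voom (648 lower over all genes tested). Of these 26, 0 passed an unadjusted p under 0.05. Their median log2 was -0.21, or -0.42 with Tet1-WT replicate 2 left out. Dmc1, the meiotic strand exchange protein, stood at 18.7 and 28 CPM in Tet1-WT against 9.56 and 9.44 CPM in Tet1-KO (adjusted p = 0.54).

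**Figure D5:**
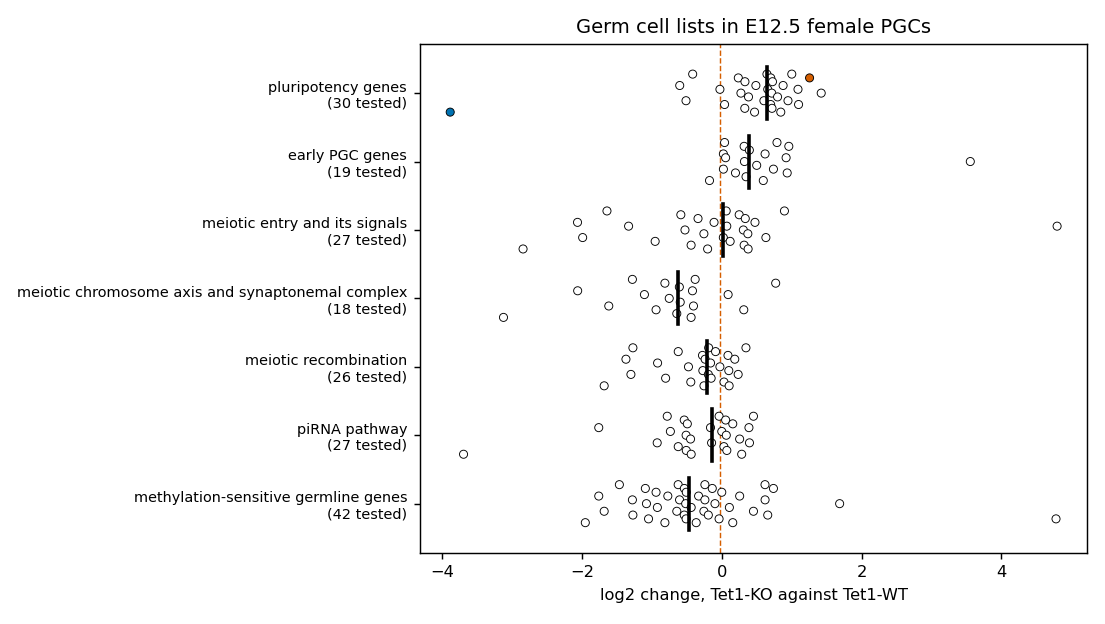
Fitted log2 change of Tet1-KO against Tet1-WT (horizontal) of the members of 7 germ cell lists that had counts, 1 point per gene, with a black bar at each list's median and a dashed line at the median of all genes. The medians run from -0.62 in the axis and synaptonemal complex list to 0.65 in the pluripotency list; the only called members are Pou5f1 (orange) and Tbx3 (blue).

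The enzymes that write, read and remove DNA methylation held 2 calls by edgeR among 28 tested, Tet1 and Zfp57, both lower. DESeq2 called 2 of the 28 higher and 4 lower, and limma's voom 1 higher and 4 lower. Over all genes tested these tools called 188 and 151 higher and 597 and 648 lower. Zfp57, which binds methylated imprinting control regions and keeps them methylated, was at 24.6 and 67.1 CPM in Tet1-WT against 2.77 and 4.23 CPM in Tet1-KO (log2 change -3.72, SE 0.79, adjusted p = 0.029), with Tet1-WT replicate 2 highest and the call lost on leaving out either Tet1-KO library (adjusted p = 0.262 and 0.281) or Tet1-WT replicate 2 (adjusted p = 0.239). Tet2, the TET enzyme that PGCs express beside TET1, stood at 43.9 and 82.7 CPM in Tet1-WT against 37 and 38.3 CPM in Tet1-KO (adjusted p = 0.388), and Tet3 at 7.25 and 12.3 CPM in Tet1-WT against 0.621 and 0.0705 CPM in Tet1-KO (adjusted p = 0.0789). Dnmt1, the maintenance methyltransferase, stood at 293 and 297 CPM in Tet1-WT against 410.4 and 657 CPM in Tet1-KO (log2 change 0.85, SE 0.27, adjusted p = 0.156), and Uhrf1, which brings it to replicated DNA, at 104 and 89.96 CPM in Tet1-WT against 54.3 and 43.4 CPM in Tet1-KO (log2 change -0.98, SE 0.29, adjusted p = 0.127). In Dnmt1 the Tet1-KO pools were above, and in Uhrf1 below, both Tet1-WT pools. Parp1, of DNA repair, stood at 448 and 451 CPM in Tet1-WT against 714 and 1053 CPM in Tet1-KO (adjusted p = 0.0688). The 34 repressors of germline genes and repeats held 0 calls by edgeR, DESeq2 or limma's voom. At an unadjusted p under 0.05 they held 5 genes, 4 of them higher, against 2270 and 933 of all 17567 genes tested.

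Of 35 genes of the mitotic cell cycle 1 fell and 0 rose. Ccnd2, a D-type cyclin, was at 129 and 200.3 CPM in Tet1-WT against 8.69 and 12.1 CPM in Tet1-KO (adjusted p = 0.00106), and kept its call without any 1 library. Ccnd1, a related cyclin, stood at 10.9 and 5.42 CPM in Tet1-WT against 4.35 and 4.79 CPM in Tet1-KO (adjusted p = 0.589), and the proliferation marker Mki67 at 238 and 217 CPM in Tet1-WT against 236 and 201 CPM in Tet1-KO (adjusted p = 0.989). Ribosomal protein genes numbered 79, of which 0 were called by edgeR, 1 by DESeq2 and 1 by limma's voom. At an unadjusted p under 0.05, 15 of the 79 were higher, against 933 of all 17567 genes tested, and 78 lay above 0. Their median log2 of 0.33 became 0.01 without Tet1-WT replicate 2, the library with the low ribosomal sum. The 26 p53 targets and apoptosis genes held 0 calls by all 3 tools. They held 3 genes at an unadjusted p under 0.05, against 2270 of all 17567 genes tested. Of 24 immediate early and stress genes 0 were called by edgeR, 2 by DESeq2 and 1 by limma's voom. At an unadjusted p under 0.05, 5 were lower, against 1337 of all 17567 genes tested. An example is Egr1, an immediate early transcription factor, at 18 and 20.9 CPM in Tet1-WT against 4.14 and 2.96 CPM in Tet1-KO (adjusted p = 0.148). The groups did not overlap.

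Other lists of germ cell programmes and cell functions held 0 calls by edgeR. They were 18 oocyte genes, 17 genes of male germ cell differentiation, 19 Rhox genes, 91 nuclear and 12 mitochondrial genes of oxidative phosphorylation, and 5 interferon-induced transmembrane genes. At an unadjusted p under 0.05 they held 1, 4, 0, 10, 0 and 1 genes in that order, against 2270 of all 17567 genes tested. DESeq2 called 3 nuclear genes of oxidative phosphorylation, all higher (188 higher over all genes), and none of the other genes in these lists. The summed level of the nuclear genes of oxidative phosphorylation was 21050 and 18930 CPM in Tet1-WT against 23460 and 23600 CPM in Tet1-KO, with Tet1-WT replicate 2 lowest.

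The X chromosome was looked at because female PGCs reactivate their silent X around this stage. Xist, the RNA that coats the silent X, stood at 19.97 and 30.3 CPM in Tet1-WT against 2.28 and 2.4 CPM in Tet1-KO (log2 change -3.43, SE 0.85, adjusted p = 0.0654), with both Tet1-KO pools under both Tet1-WT pools. Of 725 X-linked genes tested 14 fell (1.93%) and 1 rose, with a median log2 of -0.08, against 188 falls (1.17%) and 23 rises among 16058 autosomal genes, with a median of -0.01. Pgk1, a glycolytic enzyme on the X, stood at 339.8 and 344 CPM in Tet1-WT against 422 and 493 CPM in Tet1-KO (adjusted p = 0.386). The part of the mesenchyme level in the X-linked counts was not tested.

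Male PGCs of the same stage shared no library with these females, so their Tet1-KO effect could be set beside the female one. Of the 202 female falls 93 were also called lower in males, which is 46% of the female and 56.4% of the 165 male falls. In males 186 genes were called (1.06%), of which the falls were 0.939% of genes tested. Of the female falls 0 were called higher there, and 200 had a log2 change below 0 in males (51.2% of all genes did). Nr2f2 was at 456 and 325 CPM in Tet1-WT against 70.5 and 56.7 CPM in Tet1-KO in males (log2 -2.62, adjusted p = 0.00666), and Cdkn1c at 169 and 73.8 CPM in Tet1-WT against 41.5 and 26.9 CPM in Tet1-KO (log2 -1.83, adjusted p = 0.0259). Of the 25 female rises 1, Slc25a4, was among the 21 male rises (0.12% of genes tested), at 1599 and 1736 CPM in Tet1-WT against 2433 and 2428 CPM in Tet1-KO in males (log2 0.54, adjusted p = 0.0447). Pou5f1 was at 153 and 154 CPM in Tet1-WT against 178 and 206 CPM in Tet1-KO in males (log2 0.32, adjusted p = 0.65). The mesenchyme sum moved with the genotype in males as well, at 2286 and 1462 CPM in Tet1-WT against 325.1 and 235.5 CPM in Tet1-KO.

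A test of the difference of the effect, male minus female, called 0 genes by edgeR, with a smallest adjusted p of 0.463 and 1007 genes at an unadjusted p under 0.05. DESeq2 called 31, limma's voom 0, edgeR with no filter on low counts 111 and edgeR with female Tet1-WT replicate 1 left out 23. Got2, with the smallest p of the difference, rose in females, as given above, and was at 157 and 148 CPM in Tet1-WT against 65.3 and 77.8 CPM in Tet1-KO in males (difference: log2 change -2.26, SE 0.38, adjusted p = 0.463). Trappc3, of vesicle tethering, stood at 35.2 and 54 CPM in Tet1-WT against 67.6 and 114 CPM in Tet1-KO in females and 93.1 and 88.9 CPM in Tet1-WT against 39.3 and 38.7 CPM in Tet1-KO in males (difference: log2 change -2.24, SE 0.44, adjusted p = 0.509). The count of 0 thus depended on the tool, the filter and 1 library, and it does not show that the effects were alike.

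Later, at E14.5, ovarian Tet1-KO PGCs differed from Tet1-WT in 1168 genes (6.65%), 590 higher (3.36%) and 578 lower (3.29%). Of the 202 falls at E12.5, 26 were lower at E14.5 too (12.9% of the E12.5 falls and 4.5% of the E14.5 falls) and 2 were called higher. Of the 25 rises, 13 were again called higher (52% and 2.2%), among them Pou5f1 at 27.7 and 34 CPM in Tet1-WT against 78.8 and 102 CPM in Tet1-KO (adjusted p = 0.0068) and Slc25a4 at 446 and 544 CPM in Tet1-WT against 905 and 915 CPM in Tet1-KO (adjusted p = 0.00198). The mesenchyme sum at E14.5 was 78.68 and 79.93 CPM in Tet1-WT against 42.13 and 66.71 CPM in Tet1-KO, all at or below the level of the E12.5 Tet1-KO pools.

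The difference of the female effect, E14.5 minus E12.5, was called in 229 genes (1.3%), 130 higher (0.74%) and 99 lower (0.564%). The first group held 4 mesenchyme genes, 4 paternally and 4 maternally expressed imprinted genes, and the second held 0 of these lists. Nr2f2 was at 6.8 and 5.41 CPM in Tet1-WT against 1.85 and 4.5 CPM in Tet1-KO at E14.5 (log2 -0.92, adjusted p = 0.274), which differed from the E12.5 effect (difference: log2 change 3.69, SE 0.62, adjusted p = 0.018). H19 was at 11.4 and 12.508 CPM in Tet1-WT against 15.9 and 9.63 CPM in Tet1-KO at E14.5 and Cdkn1c at 48.8 and 42.9 CPM in Tet1-WT against 62.6 and 44.8 CPM in Tet1-KO (differences: log2 change 2.72, SE 0.45, adjusted p = 0.017 for H19 and log2 change 3.21, SE 0.52, adjusted p = 0.0145 for Cdkn1c). Of the 18 axis and synaptonemal genes 12 fell at E14.5, but the difference between the stages was called in 0 of them. Sycp1 was at 1128 and 935 CPM in Tet1-WT against 352 and 227 CPM in Tet1-KO (log2 -1.84, adjusted p = 0.00725) and Sycp3 at 1457 and 1166 CPM in Tet1-WT against 492 and 293 CPM in Tet1-KO (log2 -1.74, adjusted p = 0.00186) at E14.5, with differences between the stages that missed the threshold (log2 change -0.56, SE 0.49, adjusted p = 0.698 for Sycp1 and log2 change -0.93, SE 0.33, adjusted p = 0.187 for Sycp3). Dazl had about the same fitted change at both stages (-1.05 at E12.5 and -1.06 at E14.5, adjusted p = 0.14 at E14.5). The count of 229 was 0 with Tet1-KO replicate 2 of E12.5 left out, 20 with its replicate 1 left out, 12 with Tet1-WT replicate 2 left out and 521 with Tet1-WT replicate 1 left out.

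The summed mesenchyme level of each library was entered as a covariate in the same fit of all groups. With it 0 of the 227 genes kept a call, 1211 genes passed an unadjusted p under 0.05, and the median log2 of all genes moved from -0.02 to -0.27. Nr2f2 then stood at a log2 change of 0.14, Mest at 0.88, Grb10 at 1.12 and Asb4 at 1.27, all above that median. The median of the pluripotency list went from 0.65 to -0.37, that of the early PGC list from 0.39 to -0.78 and that of the maternally expressed imprinted list from -0.39 to 0.42. Members of the mesenchyme list, Nr2f2 among them, enter the sum that was used. Because the mesenchyme level separated the genotypes at E12.5 in both sexes, its part and that of the genotype cannot be told apart in these 4 libraries.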

How the data were processed

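RNA was measured in sorted PGCs by polyA RNA-seq of amplified cDNA, per the labels' protocols. The authors deposited raw counts per gene as 1 table for the 20 libraries of the Tet1 cross; the other 2 samples of the series are in a table of their own and were not used here. Per the submitters' processing notes the tools included Trimmomatic, TopHat2 2.0.2, Bowtie 0.12.8 and HTSeq 0.5.3p9, with build mm9; how strand and reads shared by near-identical genes were counted is not given in the sources used here, so antisense or overlapping genes and close copies (Ifitm and Rhox genes) are uncertain. No gene positions are given for mm9, and promoters come from RefSeq on GRCm38.p6. Symbols were matched by Ensembl ID for 32919 of 37991 genes.

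All 20 libraries (10 groups of 2) were fitted together with edgeR 4.0.16 in R 4.3.3, using its quasi-likelihood test, TMM scaling, filterByExpr (minimum count 10, minimum total 15) and a prior count of 0.125. Sharing the spread over groups left 10 residual degrees of freedom, with a biological coefficient of variation of 0.46. The threshold was an adjusted p of 0.05 (Benjamini-Hochberg) over the 17567 genes tested. The standard errors (SE) given with the changes were derived from that test. Each is the size of the log2 change divided by the square root of the F statistic. The fit was tested on simulated data. Alternatives were DESeq2 1.42.0, limma 3.58.1 (voom with quality weights), RLE and upper quartile scaling, no filter on low counts, only the libraries compared, each library left out, and the summed mesenchyme level as a covariate. The depth was 14964368 to 24878905 counts per library, and bounds for genes at 0 use 3 counts per library and cover counting error only.

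Genes were named by a rule: Tet1, up to 20 called rises, the 15 largest and the 5 most abundant called falls, leading members of each of 37 lists, leading differences between effects, and a set of fixed genes. Genes described beyond that rule, such as Cxcr4, Cxcl12, Pdgfra, Ptch1, Wnt4, Rspo1, Wt1, Slc38a4, Phlda2, Igf2r, Impact, Meg3, Prdm1, Tfap2c, Dnd1, Etv5, Meioc, Dmc1, Parp1, Ccnd1, Mki67, Col18a1 and Egr1, were chosen after their values were seen. A gene that the rule names is not reported here. The comparison, its gene lists and its tests were chosen with earlier results of these data known. List members absent from the table or under the filter (23 and 59 entries) were not tested.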

Additional observations from a re-analysis of the deposited data

Results flagged for a closer look

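The effect of Tet1-KO differed between E14.5 and E12.5 ovaries in 229 genes by edgeR's test of the difference (adjusted p under 0.05, 2 pools a group). Of the genes named by the rule, 20 are among them. The rule names genes in part by their p in this same test and by their fall at E12.5. The count of 20 and the signs below thus follow in part from that choice. Values are the log2 effect at E14.5 minus that at E12.5. Among genes lower in Tet1-KO at E12.5, the difference was 6.84 for Unc5c, 4.74 for Igf1, 2.31 for Zfp266, 3.69 for Nr2f2, 3.4 for Ccnd2, 2.54 for Mfap4, 3.48 for Col3a1, 4.47 for Pdgfrb, 2.52 for Foxp1, 5.58 for Capn6, 4.04 for Nrep, 4.24 for Pabpc4l, 4.31 for Hmga2 and 4.06 for S100a10. For the imprinted genes it was 5.05 for Sgce, 2.72 for H19, 3.21 for Cdkn1c and 2.78 for Asb4. In all of these the E14.5 effect was above the E12.5 effect. Some were low in every E14.5 pool, such as Unc5c at 0.906 and 0.848 CPM in Tet1-WT against 1.98 and 1.39 CPM in Tet1-KO. Capn6 was likewise at 1.66 and 1.48 CPM in Tet1-WT against 1.78 and 3.73 CPM in Tet1-KO. Others were not, such as Zfp266 at 116 and 86.0 CPM in Tet1-WT against 130 and 175 CPM in Tet1-KO.

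For Epha4, an ephrin receptor, the difference was 3.69, with 32.6 and 34.8 CPM in Tet1-WT against 29.7 and 22.8 CPM in Tet1-KO at E12.5 and 1.16 and 1.59 CPM in Tet1-WT against 10.9 and 16.2 CPM in Tet1-KO at E14.5. Haus8, of the mitotic spindle, differed by -1.66, with 65 and 69.4 CPM in Tet1-WT against 82.7 and 85.4 CPM in Tet1-KO at E12.5 and 374 and 371 CPM in Tet1-WT against 157 and 136 CPM in Tet1-KO at E14.5. The mesenchyme sum differed between genotypes at E12.5 and was low in all 4 E14.5 pools, and its part in these differences was not tested.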

How the results depend on the processing

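Every named gene that was called kept its direction in all settings but the mesenchyme covariate, under which 14 turned: Slc25a39 to -0.096, Eif2b4 to -0.21, Dnm3os to 4.63, Malat1 to 0.39, Tug1 to 0.38, Mdk to 0.91, Zfp266 to 1.02, Nr2f2 to 0.14, Mest to 0.88, Grb10 to 1.12, Asb4 to 1.27, Zfp57 to 3.36, Ccnd2 to 0.62 and Capn6 to 0.039 (log2; the median of all genes moved to -0.27). With it 0 genes were called at E12.5, 0 between the stages, and 0 members lower in the paternal, maternal, mesenchyme and collagen lists; the cause was not tested.

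The count of 227 was 785 with DESeq2, 799 with voom, 943 without the filter and 494 from the 4 libraries alone, and 36 to 648 without 1 library. Of the 227, 227, 224, 223 and 183 were shared in the first 4 of these. The share of calls that were higher was 11% and moved both ways. It was 23.9% with DESeq2, 20.9% without the filter and 18.9% with voom. With RLE scaling it was 9.09%, with upper quartile scaling 5.71%, and from the 4 libraries alone 5.47%. The count of 0 between the sexes was 31 with DESeq2 and 111 without the filter, and 0 to 23 without 1 library. The count of 229 between the stages was 946 with DESeq2, 349 with voom, 864 without the filter and 4 from the libraries compared alone, and 0 to 521 without 1 library.

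Without 1 library 0 to 8 paternal, 3 to 6 maternal, 4 to 13 mesenchyme and 2 to 4 collagen genes were called lower; collagens held 10 with DESeq2, 13 with voom, 14 without the filter and 12 from the 4 libraries alone. Causes were not tested. With 2 pools a group, the spread between pools limits the precision, and for low genes the depth does too. No paired analysis was possible because both Tet1-KO columns carry the same name, so their replicate numbers are not known.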
